A study of Homo sapiens with 6 samples.

Results

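The mitochondrial import and CHCHD genes were taken as every gene whose symbol in the deposited tables starts with TIMM, TOMM or CHCHD followed by a number. This rule found 31 of the 10778 genes in the 2 tables, without using any measured value. Of these, 29 had a translational efficiency, 28 had a ribosome occupancy profile along the mRNA, and 26 had both. CHCHD2, CHCHD8 and TIMM50 were listed with a translational efficiency only, and CHCHD10 and TOMM7 with an occupancy profile only. CHCHD8 appeared in the occupancy table under its current symbol, COA4, and is described with the related genes. TOMM70 was listed there under its older symbol, TOMM70A.

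HEK293 is an established human embryonic kidney cell line. The samples were 3 libraries of ribosome-protected fragments (RPFs) and 3 libraries of total RNA, all from HEK293 cells that had received a control siRNA, so the design holds 1 condition and no treatment contrast. Ribosomes were held on the mRNA with cycloheximide at 100 µg/ml for 3 min before lysis, total RNA was taken from the same lysate, and both kinds of library were depleted of rRNA. The labels number the replicates 1 to 3 and do not say whether they came from separate cultures, so p-values measure the spread between these samples, which may be technical.

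Most mitochondrial proteins are encoded in the nucleus, made on cytosolic ribosomes and imported afterwards. The TOM complex is the entry gate in the outer membrane. Beyond it, the small TIM chaperones carry hydrophobic precursors across the intermembrane space, and the TIM23 complex passes proteins with a presequence through the inner membrane into the matrix. Many CHCHD proteins are small intermembrane space proteins whose paired cysteines are oxidised after import by the relay that contains CHCHD4, so the group holds both parts of the machinery and some of its substrates. TOMM34 carries a TOMM symbol but is a cytosolic cochaperone.

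The 6 small TIM mRNAs share a coding feature that the choice of genes did not use, a pair of CX3C motifs, that is, cysteine codons with 3 other codons between them. They are shown because these cysteines form the disulfides that hold the small TIM fold together. Capitals mark the cysteine codons, and the sequences are from the GENCODE 44 transcripts on GRCh37 that match the deposited coding sequence (CDS) length, read on the coding strand.
TIMM8A motif 1: TGTtgggagaagTGC
TIMM8A motif 2: TGTtttgtgaacTGC
TIMM8B motif 1: TGTtgggataaaTGT
TIMM8B motif 2: TGTctctccagcTGT
TIMM9 motif 1: TGCtttttggacTGT
TIMM9 motif 2: TGTtcagaacatTGC
TIMM10 motif 1: TGCcaccggaagTGT
TIMM10 motif 2: TGCctggaccgaTGT
TIMM10B motif 1: TGCttccagcgcTGT
TIMM10B motif 2: TGTctgcacagcTGT
TIMM13 motif 1: TGTttccggaagTGT
TIMM13 motif 2: TGCatcgccatgTGC
In CHCHD1, CHCHD3, CHCHD4, CHCHD6, CHCHD7 and CHCHD10 the matching cysteine codons stood 9 codons apart instead, the CX9C spacing after which the coiled-coil-helix-coiled-coil-helix fold is known.

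Translational efficiency is the deposited ratio of RPFs to total RNA, so a value says how many footprints an mRNA carried for its amount. Across all 8121 genes and the 3 replicates its median was 0.383. Of the 29 genes, 17 were higher than that median, 10 were lower and 2, CHCHD7 and TIMM9, did not pass the test (limma on the log2 scale with Benjamini-Hochberg adjustment over all genes, FDR 0.05). Of all genes tested, 89.3% were called, 44.7% as higher and 44.6% as lower, so being called is the rule in this table. The share of the 29 genes that was higher, 58.6%, stood above the 44.7% of all genes. This does not allow for their short coding sequences, and shares by CDS length are given below. Among the 21 genes with under 50% of their CDS sequence shared with another gene, counted in 30-base stretches, 11 were higher. That share lies between those of the 29 genes and of all genes. The median over the 29 genes was 0.819, and it was 0.770, 0.695 and 0.829 in replicates 1, 2 and 3.

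The values spread over a 91.0-fold range, from 0.0822 for TOMM40L to 7.48 for TOMM20. Each complex held genes on both sides of the median, as the plot of translational efficiency by complex shows. In the ordered list, 14 of the 28 pairs of neighbouring genes had replicate values that did not overlap.

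**Figure D1:**
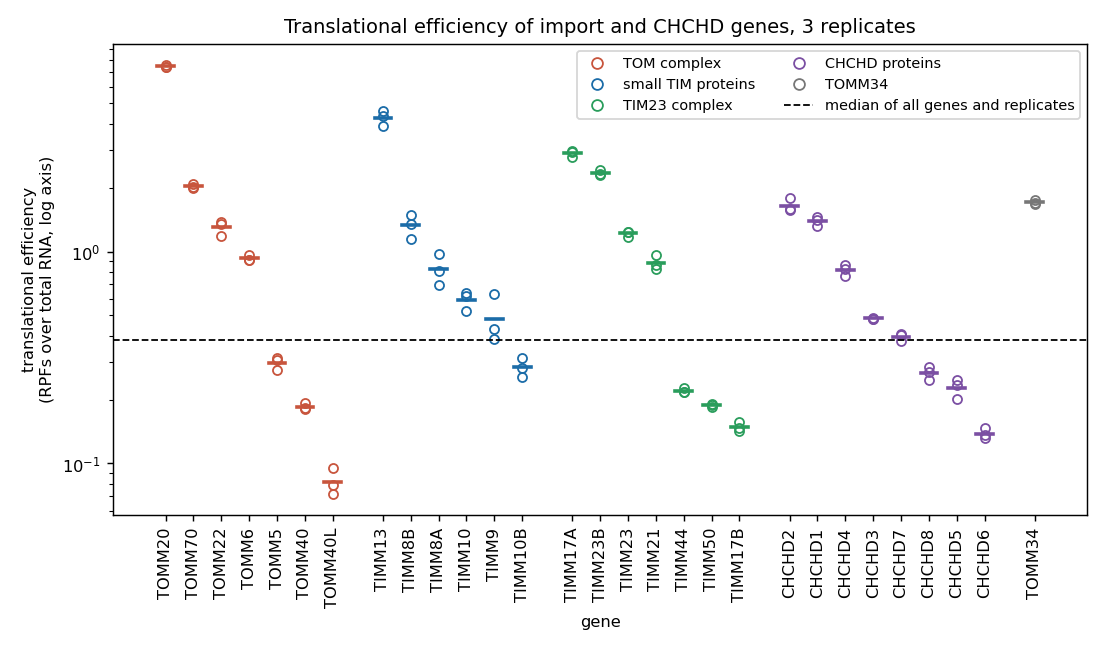
Translational efficiency (ratio of RPFs to total RNA, log axis) of the 29 genes, grouped by complex. Open circles are the 3 replicates, horizontal bars their mean and the dashed line the median of all genes and replicates (0.383). TOMM20 stands highest at 7.48 and TOMM40L lowest at 0.0822, and each complex has genes above and below the line.

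By translational efficiency, the receptors of the TOM complex stood above the median and the channel below it. TOMM20, the receptor that binds presequences, had 7.55, 7.46 and 7.43 in the 3 replicates, a mean of 7.48 ± 0.0649 (SD, n = 3). That is 4.25 ± 0.05 (SE) above the median on the log2 scale (limma adjusted p = 8.99e-07), and 98.6% of all genes had a lower value. TOMM70, the receptor for carrier precursors delivered by cytosolic chaperones, had 2.08, 1.99 and 2.01, and the log2 difference was 2.38 ± 0.05 (SE). TOMM22, the central receptor, had a mean of 1.30 ± 0.102 (SD, n = 3) and was also higher. The 3 receptors thus ranked among the upper genes of the table, with 85.6% of all genes below TOMM22, the lowest of them.

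TOMM40 forms the channel of the complex, and its values of 0.183, 0.192 and 0.182 lay well under the median. The log2 difference was -1.01 ± 0.05 (SE, limma adjusted p = 2.09e-05). TOMM40L, its paralog, had 0.0955, 0.0722 and 0.0790, the lowest values of the 29 genes, with a log2 difference of -2.10 ± 0.08 (SE). Only 4.64% of all genes stood below it. The small subunits divided as well, with TOMM6 higher than the median at 0.931 ± 0.0307 (SD, n = 3) and TOMM5 lower at 0.299 ± 0.0207 (SD, n = 3). Of the 7 TOM genes with a value, 4 were higher and 3 lower. TOMM34, the cytosolic protein, was higher at 1.71 ± 0.0423 (SD, n = 3).

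TOMM20, TOMM40 and TOMM6 share coding sequence with other annotated genes, among them pseudogenes of TOMM20 and TOMM40. Of their 30-base CDS stretches, 61.4% for TOMM20, 60.2% for TOMM40 and 100% for TOMM6 also occur in a transcript of another gene. The sources used here do not state how reads with several matches were assigned, and the part of such shared sequence in these ratios was not tested. TOMM70, TOMM34 and TOMM40L share no such stretch.

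The small TIM proteins work as ring-shaped hexamers of TIMM9 with TIMM10 or of TIMM8A with TIMM13, and these partners are set side by side. The ratio is per mRNA and does not give the amounts of protein made. TIMM13 had 4.34, 4.58 and 3.89, a log2 difference of 3.44 ± 0.06 (SE, limma adjusted p = 1.57e-06), and it shares no 30-base stretch with another gene. Its partner TIMM8A had 0.811, 0.695 and 0.970, with a log2 difference of 1.07 ± 0.10 (SE), and 53.6% of its 30-base stretches occur in another gene. Both were higher than the median, and every TIMM13 value was above every TIMM8A value.

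TIMM10 had 0.526, 0.638 and 0.616 and was higher than the median, by 0.61 ± 0.07 (SE) on the log2 scale. TIMM9 had 0.385, 0.429 and 0.631, with a log2 difference of 0.29 ± 0.14 (SE, limma adjusted p = 0.111). The TIMM9 values overlapped those of TIMM10, and replicate 3 was the highest of the TIMM9 values. TIMM8B, a second form of TIMM8A, had 1.49, 1.15 and 1.35 and was higher. TIMM10B, which sits with a TIMM9 and TIMM10 ring on the inner membrane carrier translocase, had 0.315, 0.283 and 0.257 and was the 1 small TIM gene lower than the median, by a log2 difference of -0.42 ± 0.07 (SE, limma adjusted p = 0.00289). All its 30-base CDS stretches also lie in another annotated gene, and whether this moved its ratio was not tested.

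The TIM23 complex held both forms of 1 subunit on opposite sides of the median. TIMM17A, one form of a subunit that lines the translocation path, had 2.97, 2.94 and 2.79, a log2 difference of 2.89 ± 0.05 (SE, limma adjusted p = 1.40e-06). TIMM17B, the other form of the same subunit, had 0.157, 0.147 and 0.143 and a log2 difference of -1.31 ± 0.05 (SE, limma adjusted p = 1.09e-05). TIMM17A lies on chromosome 1 (GRCh37, 201924631 to 201939792, plus strand) and TIMM17B on chromosome X (48750730 to 48755426, minus strand), and their CDSs share no 30-base stretch with each other.

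TIMM23, the core of the channel, had 1.24, 1.17 and 1.24 and was higher, with a log2 difference of 1.64 ± 0.05 (SE). TIMM23B, a near copy of TIMM23, had 2.42, 2.29 and 2.31. Both lie on chromosome 10, TIMM23B at 51371390 to 51387768 and TIMM23 at 51592080 to 51623350 on the opposite strand. Of the 30-base stretches of the longest annotated TIMM23B CDS, 100% occur in TIMM23, and 81.2% of those of TIMM23 occur in TIMM23B. The 2 values are thus uncertain and cannot be told apart from a split of shared reads. TIMM21, which links the TIM23 complex to the TOM complex and the respiratory chain, was higher at 0.884 ± 0.0674 (SD, n = 3).

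TIMM50, the receptor of the TIM23 complex, had 0.188, 0.192 and 0.184, a log2 difference of -0.99 ± 0.05 (SE, limma adjusted p = 2.01e-05). TIMM44, which tethers the import motor to the channel, was lower as well at 0.221 ± 0.00567 (SD, n = 3). Of the 7 TIM23 complex genes, 4 were higher and 3 lower, and neither TIMM50 nor TIMM44 shares a 30-base stretch with another gene.

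Of the 8 CHCHD genes with a translational efficiency, 4 were higher, 3 lower and 1 was not called. CHCHD2, a regulator of respiration, had the highest mean at 1.65 ± 0.128 (SD, n = 3), with 70.3% of its 30-base stretches found in other genes. CHCHD1, a subunit of the mitochondrial ribosome, followed at 1.39 ± 0.0667, and CHCHD4, the oxidoreductase that imports the CX9C proteins, at 0.819 ± 0.0457 (SD, n = 3 each). CHCHD3, a subunit of the MICOS complex that shapes the cristae, had 0.488, 0.482 and 0.483 and was higher by 0.33 ± 0.05 (SE) on the log2 scale. CHCHD7 lay at the median with 0.402, 0.378 and 0.407.

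CHCHD8 and CHCHD5 were lower than the median at 0.267 ± 0.0188 and 0.227 ± 0.0238 (SD, n = 3 each). CHCHD6, the other MICOS subunit of this family, had 0.147, 0.136 and 0.133, a log2 difference of -1.41 ± 0.05 (SE, limma adjusted p = 9.12e-06).

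Paralogs with related proteins were compared directly, as the difference of their log2 translational efficiency within each replicate. Values of the 2 genes did not overlap in any of the 6 pairs for which both were measured. Such gaps are not particular to paralogs. Even among neighbours in the ordered list, which lie closest in mean, 14 of the 28 pairs did not overlap, so gaps between genes farther apart are no surprise. The share over other gene pairs was not counted, and the 6 of 6 is not read as a trait of paralogs. The exact two-sided permutation test shuffled the 3 values of each gene without the pairing by replicate, so it does not test the differences within replicates. It cannot go below 0.1, and it gave 0.1 for each of the 6 pairs (0.1 after adjustment over the 6). TIMM17A exceeded TIMM17B 19.5-fold, with a log2 difference of 4.20 ± 0.04 (SD, n = 3), far beyond the spread between replicates.

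The MICOS pair came next, with CHCHD3 3.50-fold above CHCHD6 (log2 difference 1.74 ± 0.06, SD, n = 3). TOMM40 was 2.26-fold above TOMM40L (1.09 ± 0.21), and TIMM10 was 2.08-fold above TIMM10B (1.03 ± 0.27). TIMM8A lay below TIMM8B, whose mean was 1.61-fold higher (log2 difference of TIMM8A minus TIMM8B, -0.68 ± 0.20). TIMM23B was 1.92-fold above TIMM23, with the limit from shared sequence given above. In 3 of the pairs, TIMM17A with TIMM17B, CHCHD3 with CHCHD6 and TIMM10 with TIMM10B, the genes passed the test against the median in opposite directions. With 44.7% of all genes called higher and 44.6% lower, opposite calls are common for any 2 genes.

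**Figure D2:**
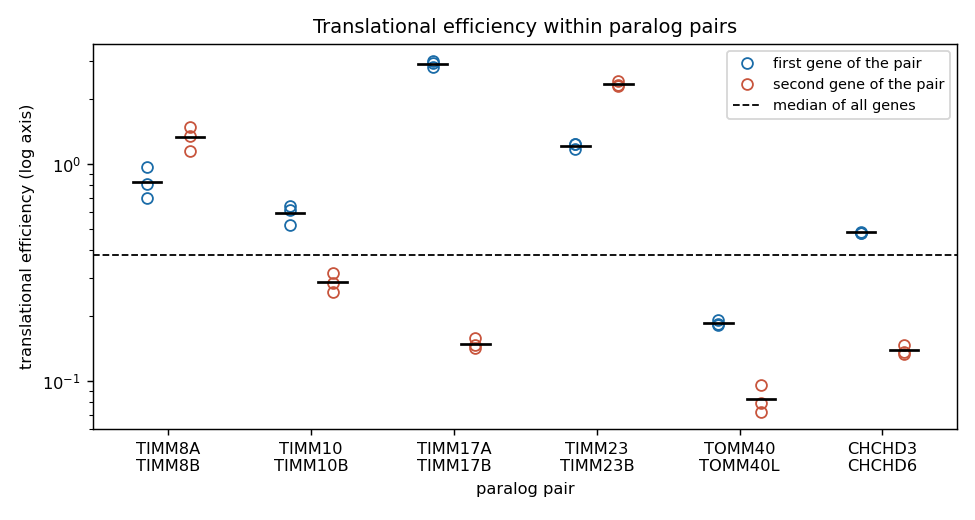
Translational efficiency (log axis) of 6 paralog pairs, the first-named gene in blue and the second in red. Open circles are the 3 replicates and black bars their means, and the dashed line is the median of all genes. No pair overlaps, and the TIMM17A and TIMM17B values lie farthest apart (means 2.90 and 0.149).

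Genes of the same pathway outside the TIMM, TOMM and CHCHD families were read from 3 further lists. Of 26 other import genes, 22 were measured, of which 14 were higher than the median, 5 lower and 3 not called, and their median was 0.582. The highest was HSPE1, the matrix cochaperonin, at 3.92, 4.23 and 4.14, with 95.7% of its 30-base stretches found in other genes. The lowest was MTCH1, an outer membrane protein of the carrier fold, at 0.135, 0.121 and 0.129. Against the 44.7% of all genes that were higher, the share in this list was 63.6%.

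The 14 other genes with the twin CX9C fold were all measured, and 11 were higher, 0 lower and 3 not called by limma, with a median of 1.77. At an unadjusted p under 0.05 the count of lower genes was also 0. The CHCHD genes, counted apart, had 3 of 8 lower, and the count of 0 leaves these out. They were CHCHD8, which has the same fold, CHCHD6, with 2 CX9C motifs in its CDS, and CHCHD5. Of all genes, 44.7% were called higher and 44.6% lower. This does not allow for CDS length, which ran from 64 codons (COX17) to 173 (NDUFA8) in the listed genes with a profile. Of all genes with up to 100 codons 70.2% were called higher, and 68.6% of those with over 100 and up to 150. The share in this list was 78.6%, and whether it exceeds that of short CDSs was not tested. NDUFS5, a subunit of respiratory complex I, was the highest at 3.65, 3.53 and 3.90, and CMC4, at 0.353, 0.353 and 0.370, was the lowest and not called, and 100% of its 30-base stretches occur in another gene. The 5 other MICOS genes were all measured, 2 higher and 3 lower, from C19orf70 at 0.186, 0.265 and 0.236 to MINOS1 at 9.75, 10.4 and 12.96, of whose 30-base stretches 100% occur in another gene. CHCHD3, with a mean of 0.484, lay within the range of these MICOS genes, whereas all 3 values of CHCHD6 lay under it.

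The occupancy table gave a second reading of the same mRNAs. It holds, for each codon of the most abundant transcript of a gene, in-frame RPF counts normalised for library size and divided by the TPM of the mRNA, with the replicates combined, so these values carry no replicate error. The 28 profiles rested on 178736 in-frame RPF reads as recovered from the steps in the values, from 342 reads for CHCHD5 to 27022 for TOMM20. Large codon values exceed the range in which reads can be resolved, and 80.3% of the CDS reads of the 28 genes are estimates.

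Mean CDS occupancy per codon had a median of 0.0689 over the 28 genes, compared with 0.0450 over all 9570 transcripts, and 18 of the 28 were above the latter. By the median over codons in place of the mean the values were 0.0200 and 0.00717. TIMM23B was highest at 0.871, followed by TIMM13 at 0.190 and TOMM20 at 0.173. TOMM40L was lowest at 0.0128, then TIMM17B at 0.0184 and TOMM40 at 0.0244. TIMM17A had 0.0947, and the 2 paralogs were thus on the same sides as in translational efficiency. TIMM10 at 0.0664 and TIMM10B at 0.0414 were so as well. CHCHD3 at 0.0419 was above CHCHD6 at 0.0296, but both lay under the median of all transcripts. The TIMM8 pair had the reverse order, with 0.131 for TIMM8A and 0.0626 for TIMM8B. The partners TIMM9, at 0.137, and TIMM10 also stood in the reverse order of their mean translational efficiencies. CHCHD10, a paralog of CHCHD2, had 0.0556 and TOMM7, a small TOM subunit, had 0.0694. COA4, the current symbol of CHCHD8, had 0.0294.

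These mRNAs were abundant and short. The abundance recovered from the worth of a read, relative to the median transcript, had a median of 4.50 and was above 1 for 27 of the 28 genes. TOMM6 was the highest at 16.1, and TIMM23B was the exception at 0.568. Small TIM partners differed, with 12.8 for TIMM13 and 1.42 for TIMM8A, and 5.28 for TIMM10 and 1.41 for TIMM9. The CDS, stop codon included, had a median of 143 codons against 448 for all transcripts and was shorter than that for 26 of the 28 genes.

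Short CDSs had higher translational efficiency in the whole table, with a median of 1.09 over the 171 genes of up to 100 codons and 0.342 over the 5190 genes of more than 250 codons. The import and CHCHD genes had medians of 0.593 (n = 9) and 0.221 (n = 5) in these classes, below those of all genes. In the classes between they stood above all genes, with 1.35 (n = 6) against 0.820 for over 100 and up to 150 codons, and 0.684 (n = 6) against 0.536 for over 150 and up to 250 codons. From the shortest to the longest class, 70.2%, 68.6%, 56.2% and 40.0% of all genes were called higher. For the import and CHCHD genes the shares were 55.6%, 83.3%, 66.7% and 40.0%. Across the 26 genes the Spearman coefficient of translational efficiency with CDS length was -0.05, and across all 6913 genes in both tables it was -0.26, given as descriptions over genes that share the same libraries.

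Translational efficiency and mean CDS occupancy come from the same RPF and total RNA libraries. Their Spearman coefficient was 0.67 over the 26 genes and 0.69 over the 6913, again as a description. Some genes stood apart in their rank among the 6913. TOMM22 was above 85.7% of genes in translational efficiency but above 16.8% in occupancy, where its mean was 0.0250. By occupancy this receptor thus lay under the median of all transcripts, close to the channel gene TOMM40 at 0.0244. TIMM21 was above 76.6% of genes in translational efficiency and 41.6% in occupancy.

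The opposite order was seen for CHCHD7, above 50.6% of genes in translational efficiency and 88.2% in occupancy, for TOMM5 with 39.5% and 75.2%, and for TIMM9 with 58.2% and 88.5%. These genes were chosen after their values were seen. The occupancy table counts in-frame reads of 1 transcript, and whether this difference in counting moved the ranks was not tested.

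**Figure D3:**
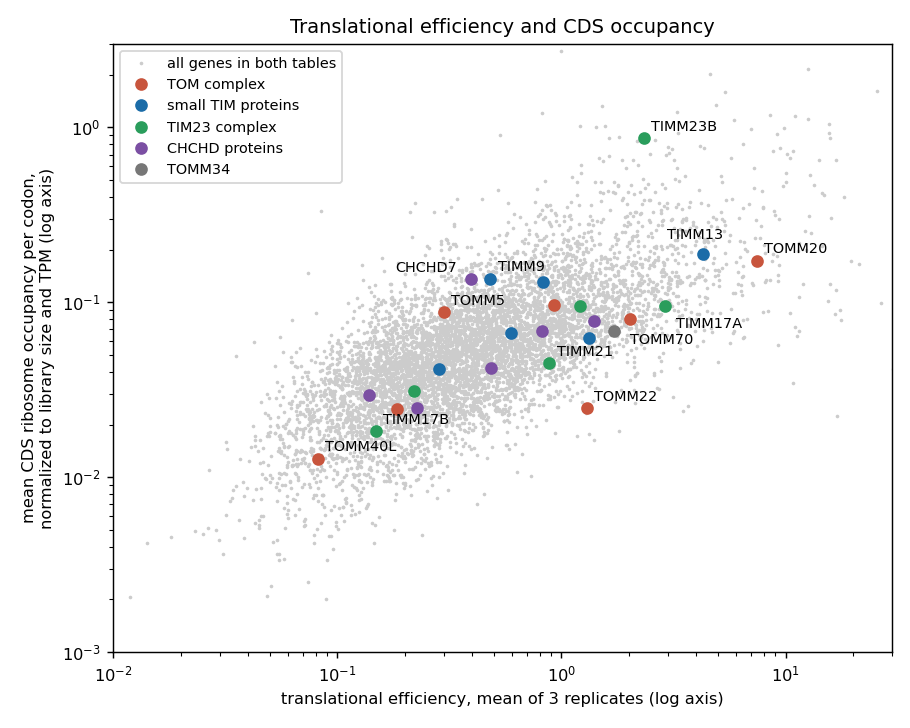
Translational efficiency (horizontal, mean of 3 replicates) against mean CDS ribosome occupancy per codon (vertical), both on log axes. Grey points are all genes in both tables with an occupancy above 0 that lie within the axes, coloured points the 26 import and CHCHD genes by complex. TOMM22 sits low for its translational efficiency, and CHCHD7, TIMM9 and TOMM5 sit high.

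Start codon contexts are shown for the pairs and receptors on which the comparison of translational efficiency turns. Capitals mark the start codon, with 9 bases before it and 3 after, from the GENCODE 44 transcripts on GRCh37.
TOMM20: gtagagaagATGgtg
TOMM70: acacttgtcATGgcc
TOMM22: cctacagtcATGgct
TIMM13: tgcggagccATGgag
TIMM17A: ggagtcaagATGgag
TIMM17B: gccagcgccATGgag
TOMM40: ccagcgaccATGggg
TOMM40L: tggactaaaATGggg
CHCHD3: accggaatcATGggt
CHCHD6: catctcgccATGggg
TIMM8B: ccgtcgcgcATGcgc
The strongest part of the Kozak context is a purine at position -3 and G at position 4, counted from the A of the start codon as 1. All these mRNAs but TIMM8B carry both, including TIMM17A and TIMM17B, whose 3 bases after the start codon are the same.

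Of the 26 genes with a matched start, 96.2% had A or G at -3 and 76.9% had both, compared with 85.9% and 46.0% of the 9026 matched transcripts in the table. TIMM8B was the 1 gene of the 26 with neither.

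The 5′UTR of the listed transcripts differed widely in length. Listed lengths departed from the closest GENCODE 44 transcript of equal CDS length by 107 codons for TIMM13, 100 for TOMM70 and 0 for TIMM17A. Classes drawn on those transcripts were not tried. CHCHD1, TIMM8B, TOMM22 and TIMM17A had at most 8 codons of 5′UTR, and their translational efficiencies ran from 1.30 to 2.90, all higher than the median. The 327 genes of the table with 5′UTRs this short had a median of 0.411, and 47.7% of them were higher. Of the 13 genes with 5′UTRs of more than 50 codons 9 were higher as well, with a median of 0.826 against 0.376 for all genes, while the 9 genes between had 0.285 against 0.404. The share called higher was 69.2% against 43.6% of all genes in the former class and 33.3% against 46.8% in the latter. The Spearman coefficient of translational efficiency with 5′UTR length was 0.08 over the 26 genes and -0.06 over the 6913, as a description. TIMM17B had a 5′UTR of 46 codons.

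In-frame RPFs in the 5′UTR were rare on most of these mRNAs. The ratio of 5′UTR to CDS occupancy per codon had a median of 0.0190, and 0.0286 over all transcripts with a value. Without the 5 codons next to the start codon both were lower, at 0.0122 and 0.0195. For 12 of the 28 genes 5 or fewer reads lay in the 5′UTR, and for 5 none did. Among the latter, TOMM40 had 0 of 10115 in-frame reads, which allows a share of up to 0.0297%, and TIMM17B had 0 of 2004, which allows up to 0.150%. Intervals and these limits cover counting error only.

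CHCHD5 had the highest ratio, 0.641, which fell to 0.186 when the 5 codons next to the start codon were left out, close to the 0.182 of TOMM40L on that setting. Of its 342 in-frame reads, 103 lay in the 5′UTR, 30.1% (95% Wilson interval 25.5% to 35.2%). Its listed transcript has a CDS of 73 codons that matched no GENCODE 44 transcript of that gene by length, so the place of these reads relative to other annotated starts was not analysed here. TOMM40L followed at 0.173, with 5.31% of 490 reads (3.65% to 7.66%) in the 5′UTR, and TIMM9 at 0.148, with 9.98% of 1794 reads (8.68% to 11.5%). CHCHD5 and TOMM40L were both lower than the median in translational efficiency, while TIMM9 was not called.

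Along the CDS, footprints lay somewhat later than on the median transcript. The first 50% of codons held a median of 46.4% of the CDS occupancy over the 28 genes, and 50.6% over all transcripts. This share was under 50% for 19 of the 28 genes, compared with 48.0% of all transcripts. The codon with the highest value lay in the first 50% of the CDS for 8 of the 28 genes and for 53.7% of all transcripts.

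TIMM8B had the lowest share, with 16.3% of its occupancy in the first 50% of codons, followed by CHCHD10 with 18.7% and TOMM5 with 25.3%. The other end was held by TIMM10B with 86.3%, TOMM20 with 77.0% and TIMM17B with 63.0%. CHCHD10 had no read at 78 of its 143 codons and a longest run of 24 codons without a read. In the paralogs TIMM10B and TIMM10, the shares were 86.3% and 36.7%, and in TIMM8A and TIMM8B they were 38.1% and 16.3%.

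**Figure D4:**
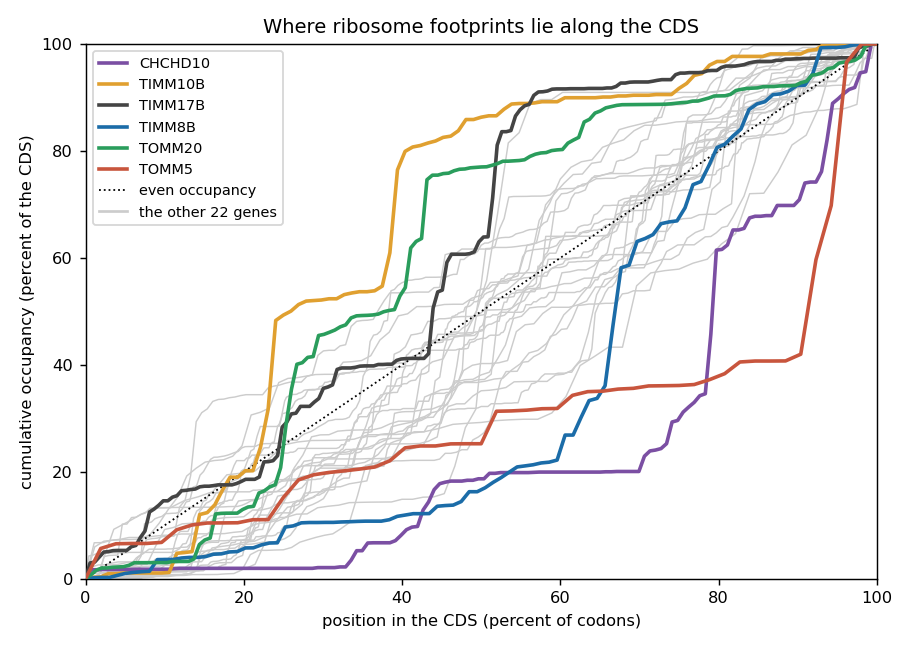
Cumulative share of CDS occupancy (vertical, percent) along the CDS (horizontal, percent of codons) for the 28 genes with a profile, replicates combined. Named genes have the 3 highest and 3 lowest shares in the first 50% of codons, and the dotted line is even occupancy. TIMM10B has 86.3% and TIMM8B 16.3% by the middle, and steep steps mark single codons with many footprints.

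A large part of the occupancy of these short CDSs fell on single codons. The codon with the highest value held a median of 9.99% of the CDS occupancy, and 4.95% over all transcripts, whose CDSs are longer. Relative to the mean of its own CDS, the highest codon had a median of 13.9 times the mean in these genes and 21.0 times over all transcripts. The largest shares were 26.8% at codon 50 of TOMM5, 19.8% at codon 81 of TIMM8A and 19.6% at codon 38 of TOMM6.

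The bases around these codons are shown with those of TOMM20, the gene with the highest translational efficiency, and of the TIMM17 pair. Capitals mark the codon with the highest value and up to 3 codons stand on each side.
TOMM5 codon 50: aaattggacAGCatatga
TIMM8A codon 81: ttgaatcgaCTGgaacagacc
TOMM6 codon 38: gccactgatAGGaatgacttc
TOMM20 codon 63: cttaaagatGCTgaagctgtt
TIMM17A codon 87: agaggaaagGAAgatccctgg
TIMM17B codon 90: gaggatcccTGGaactctatc
The TOMM5 codon lies 2 codons before the stop codon. When the highest codon was left out, TOMM5 kept 34.5% of its remaining occupancy in the first 50% of codons, and without the 5 codons at each end it had 52.4%, so its low share rests on the end of the CDS.

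The highest codons of TIMM17A and TIMM17B lie in the same stretch of the aligned proteins. Over 171 aligned codons, 76.0% of residues are identical, and the codon profiles, each divided by its own mean, had a Pearson coefficient of 0.36 and a Spearman coefficient of 0.24 over codons, as a description. Codon 76 was high in both, at 10.7 times the mean of the CDS in TIMM17A and 14.8 times in TIMM17B. At codon 87 TIMM17A had 11.5 times its mean and TIMM17B 1.56, and at codon 90 they had 5.61 and 17.2. Between codons 8 and 43 they differed, with 9.97 times the mean at codon 8 in TIMM17A and 0 in TIMM17B, and 0 and 9.25 at codon 43.

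In the other 4 pairs that could be aligned, the Pearson coefficient over codons was between 0.05 for CHCHD3 with CHCHD6 and 0.17 for TIMM10 with TIMM10B. TIMM23B had no matched CDS and its pair was not aligned.

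**Figure D5:**
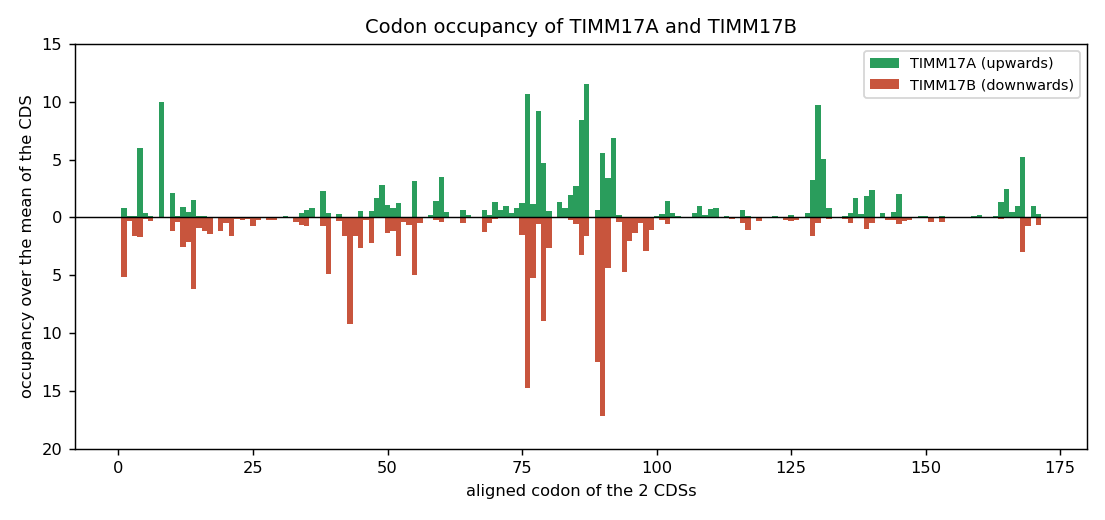
Occupancy of each codon divided by the mean of its own CDS, for TIMM17A (upwards) and TIMM17B (downwards), over the 171 aligned codons with replicates combined. Both have high codons near 76 and between 86 and 92, whereas codon 8 is high only in TIMM17A and codon 43 only in TIMM17B among these 2 profiles.

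At the cysteine motifs printed above, occupancy per codon over the 5 codons was under the mean of the same CDS in 10 of the 12 small TIM motifs. The second motif of TIMM9 had 1.66 times the mean and that of TIMM10 1.33 times, whereas the first motif of TIMM10 had 0.164 times and that of TIMM9 0.287 times. In TIMM13 both motifs were at 0.527 and 0.550 times the mean. Stretches at the CX9C spacing ran from 0.123 times the mean in CHCHD6 to 4.36 times in CHCHD10. The share of all stretches of 5 codons that lie under the mean of their CDS was not counted. Since most codons of a profile lie under its mean, these values describe the motifs and are not a test.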

How the data were processed

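Ribosome profiling and total RNA libraries of 3 numbered replicates were analysed. Per the labels and the submitters' processing notes, cutadapt 1.16, Bowtie 1.1.2, TopHat2 2.1.1 and HTSeq 0.9.1 were used on hg19. The methods describe removal of PCR duplicates by molecular identifiers, and RPFs of 28 to 30 nt placed with an offset of 13 nt. The deposited translational efficiency is a linear ratio for each gene and replicate, with a formula that these sources do not state. The deposited occupancy values are counts per codon normalised by the authors for library size and TPM, with replicates combined.

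Ratios, as log2(value + 0.01), were tested against their overall median with limma 3.58.1 (R 4.3.3) and adjusted by Benjamini-Hochberg over 8121 genes and no filter on low values. A log2 change on this scale understates that of low genes. In simulated data, 85% of 200 genes moved by 1 were called, with 7 unmoved genes. Differences between paralogs used the log2 ratio without comparison to other genes. Depth was read from 3 value steps per transcript, recovered with a tolerance of 1e-08 for 99.9% of 9570 transcripts and all 28 profiles, and tested on 500 simulated transcripts, of which 500 were solved. The depth behind the ratios is unknown. CDSs came from GENCODE 44 on GRCh37, matched by symbol and CDS length for 95.5% of transcripts. For genes without a match, among them CHCHD2, CHCHD5, CHCHD8, TIMM23B and TIMM50, shared stretches were counted in the longest annotated CDS. Python 3.11.15, scipy 1.17.1 and Biopython 1.88 were used.

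The members, lists and tests were chosen with earlier results of these data known. Values per replicate were given for the 5 genes highest and 5 lowest in translational efficiency, paralog pairs and small TIM genes, and the 3 most extreme genes for each occupancy measure. The ends of each related list were also named. RPF and total RNA of a number share a lysate according to the methods and enter the ratio together, so the pairing is within the deposited values. Alternatives covered the pseudocount, a filter, each replicate, a replicate block and the codons counted. No protein sequences were used.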

Additional observations from a re-analysis of the deposited data

How the results depend on the processing

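Of the 203 recomputed comparisons of single genes with the median and the 24 of paralog pairs, none changed direction or, for single genes, side of the threshold, also with each replicate left out. With a replicate block, in which each replicate's own median was removed, 17 genes were higher and 10 lower, as without it, and 20 in place of 19 other import genes were called. Restricted to genes with under 50% of their 30-base CDS stretches in another gene, an alternative chosen after seeing the data, 11 of 21 genes were higher. The mean translational efficiency over the 29 genes was 1.21 against a median of 0.819. The median CDS occupancy was 0.0200 by the median over codons (0.00717 for all transcripts), 0.0672 without the first and last 5 codons (0.0450) and 0.0625 without the highest codon (0.0424). The share in the first 50% of codons became 47.3% under each of the latter 2 settings (47.3127 and 47.2616), and the 5′UTR to CDS ratio was 0.0122 without the 5 codons next to the start codon (0.0195 for all transcripts). The cause was not tested beyond the fewer codons or genes counted. Occupancy has no replicate error, and at 342 reads CHCHD5 was the shallowest profile.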
